A study of Danio rerio and Xiphophorus maculatus with 12 samples.

Results

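The ventricles of uninjured zebrafish (Danio rerio) and platyfish (Xiphophorus maculatus) were compared gene by gene, using 6 of the 12 libraries of the series. The species were set side by side through genes whose lower-case symbol was identical and occurred once in the table of each species. This rule matched 13662 genes out of 32520 in the zebrafish table and 24209 in the platyfish table, and 10421 of them had enough counts to be tested. A shared symbol is no proof of common descent, and gene lengths and annotations are not the same in the 2 species. Levels were therefore compared for the same symbol between species. Where copies of a gene or the most counted genes are set side by side, the values are counts with no correction for length.

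All fish were adult wild types held in system water at about 27 °C, and no fish of these 2 groups had been handled before collection. Each library came from RNA of 8 pooled ventricles, with the atrium and bulbus arteriosus cut away, and there were 3 pools per species. The other 6 libraries came from ventricles on day 7 after a cryoinjury, a wound made by freezing. The p-values below measure the spread between such pools. Species, genome annotation and read counting differ together between the 2 groups and cannot be told apart by these libraries.

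The fish ventricle is a single chamber of trabeculated and compact heart muscle, lined by endocardium and covered by epicardium. Zebrafish heart muscle is known for regrowing after injury. Teleost fish share an ancient genome duplication, which left many genes in an a and a b copy, and such copies can divide one job differently in different lineages.

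The 6 libraries held between 19073562 and 31148127 counts. Matched genes took 44.9% to 48.0% of the counts in zebrafish and 55.8% to 58.0% in platyfish, and the 13 protein genes of the mitochondrial genome, which carry different symbols in the tables, took 28.8% to 32.7% and 18.9% to 21.0%. Levels are given as CPM, counts per 1000000 counts of all genes in the library. Markers of other organs were low: the summed CPM of matched exocrine pancreas markers was 1.61 to 1.71 in zebrafish and 1.89 to 2.38 in platyfish, and that of skeletal muscle markers was 43.0 to 76.1 and 1.57 to 17.97. Liver markers summed to 36.4 to 43.8 CPM and 44.1 to 79.7 CPM. The atrial myosin gene myh6 was at 0.607, 0.72 and 2.47 CPM in the 3 zebrafish libraries and 8.86, 17.8 and 2.46 CPM in the 3 platyfish libraries, so 1 platyfish pool lay within the zebrafish range. The 4 matched atrial markers together went the other way, with summed CPM of 56.8 to 76.3 in zebrafish and 35.1 to 36.0 in platyfish. Most of the zebrafish sum was gja5a, at a mean of 50.1 CPM. Of the 4, 1 was 4-fold higher in platyfish (28.9% of all genes were) and 1 in zebrafish (15.0%).

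Ribosomal protein genes, which every cell uses, showed how far a count can be read as expression here. Of 66 matched ribosomal protein genes, 52 were at 426 to 4050 CPM in zebrafish, with a median of 1269 CPM against 1099 CPM in platyfish. The other 14 were at 0 to 26.3 CPM in zebrafish and 438 to 2652 CPM in platyfish, and none lay between the 2 sets on the scale of fold change: their log2 differences ran from 5.08 to 17.35, while the next gene stood at 0.49. For example, rpl10 was at 1.61, 1.44 and 1.91 CPM in the 3 zebrafish libraries and 665, 807 and 823 CPM in the 3 platyfish libraries, and rpl32 was listed at 0 in all 3 zebrafish libraries against 953, 1077 and 1131 CPM. All 14 were also over 16-fold higher in platyfish in the cryoinjured libraries. In platyfish 1 of the 66 genes, rps29 at 30.1, 24.1 and 23.6 CPM, was under 50 CPM. Towards zebrafish, 3 of the 66 genes were over 4-fold higher under both scalings: rps29, rps27.2 and rplp0, the last at 3484, 3436 and 3649.6 CPM against 606, 818 and 834 CPM. Differences of that size in either direction thus also occurred in genes of 1 stoichiometric complex.

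**Figure D1:**
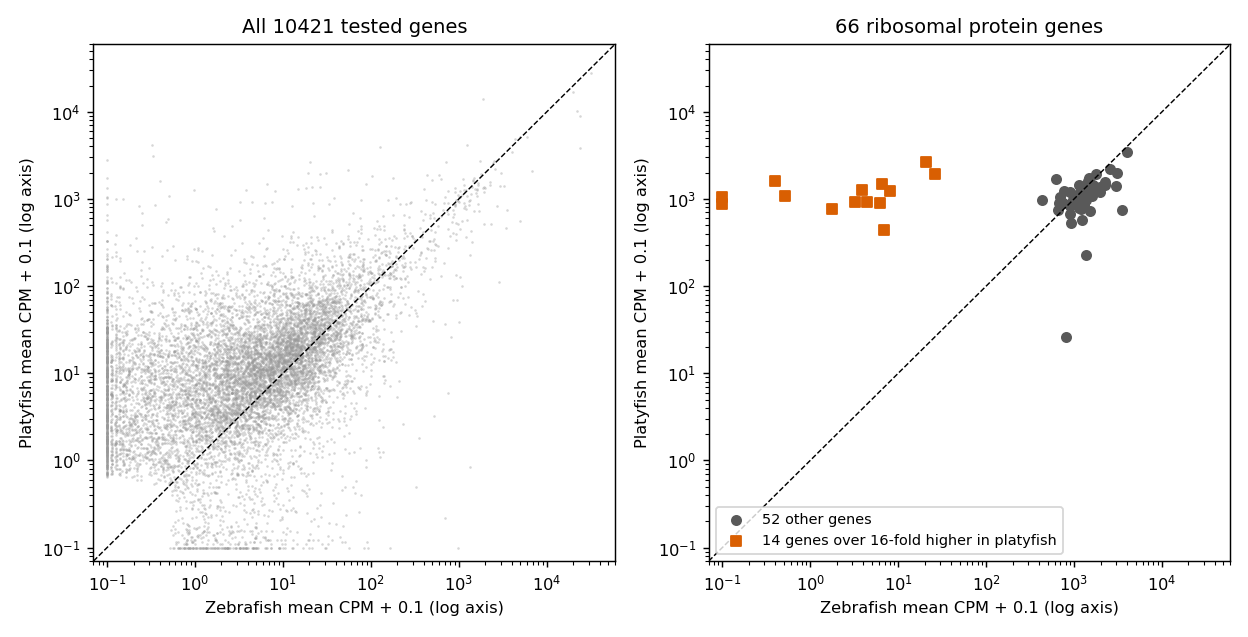
Mean CPM of 3 zebrafish libraries (x axis) against mean CPM of 3 platyfish libraries (y axis), both on log axes after adding 0.1, for the 10421 tested genes (left) and the 66 ribosomal protein genes (right); each point is a gene and the dashed line marks equal levels. Squares mark the 14 ribosomal protein genes at 0 to 26.3 CPM in zebrafish, which stand apart from the other 52.

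The same pattern was seen in other genes, among them genes of the respiratory chain. In zebrafish, the respiratory chain genes ndufs4 and ndufa12 were listed at 0 in all 3 libraries against 348, 355 and 273 CPM and 177, 195 and 149 CPM in platyfish, and uqcrb was at 1.32, 1.19 and 2.03 CPM against 498, 513 and 396 CPM. Of 3391 matched genes with at least 20 CPM in platyfish, 140 were at 0 in all 3 zebrafish libraries. Of 1975 with at least 20 CPM in zebrafish, 8 were in the reverse position. Among these 8 was the complex I gene ndufa6, at 96.4, 78.8 and 106 CPM in zebrafish. Low zebrafish values clustered along the genome: taking 3273 genes with at least 20 CPM in platyfish in their order on RefSeq's GRCz12tu assembly, the next gene was over 16-fold higher in platyfish after 33.6% of genes that were so themselves and after 15.7% of the others. The cause was not tested. A level over 16-fold higher in platyfish is therefore printed as counted and is not read as a difference in expression. The results turn on genes higher in zebrafish and on genes 4- to 16-fold higher in platyfish. Both sets may still include genes counted unequally, which was not tested. The ribosomal protein gene rplp0, for one, was over 4-fold higher in zebrafish. In all, 570 genes were over 16-fold higher in zebrafish, and no such cut was made for them. Genes listed at or near 0 in platyfish, such as ndufa6, ndufa4l, casq1b, ryr1b, kcne4 and gja5a, carry the same limit. So do others over 16-fold higher in zebrafish, among them hcn2b, cycsb, atp5l and loxl1.

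In all, 8383 of 10421 genes (80.4%) passed an adjusted p of 0.05 in edgeR's quasi-likelihood test, 4605 of them higher in platyfish (44.2%) and 3778 higher in zebrafish (36.3%). At a difference of at least 4-fold, 3013 genes (28.9%) were higher in platyfish, 1755 of them (16.8%) over 16-fold, and 1565 genes (15.0%) were higher in zebrafish, 570 of them (5.47%) over 16-fold. Fold changes are written as log2 of platyfish over zebrafish, on the TMM scale, which balances the bulk of the matched genes, while a plain fold given for a gene is the ratio of mean CPM. Scaling each library to its total of all genes, as CPM does, moved the log2 values up by 0.95 in the median, less for genes at 0 in 1 species, and the 4-fold counts to 4008 and 912, so the share of 4-fold genes that were higher in platyfish was 65.8% or 81.5%. It was 77.7% with the library size over matched genes alone. Ranking genes within each library, which needs no scaling between libraries, gave 2220 genes higher in platyfish and 2396 higher in zebrafish by at least 20 percentile points without overlap. The balance between the directions thus changed with the scaling. The second scaling was added after the data were seen, and the text names where a direction depended on it: 912 genes (8.75%) were over 4-fold higher in zebrafish under both and 741 (7.11%) were 4- to 16-fold higher in platyfish under both. Across the 10421 genes the Spearman correlation of mean levels was 0.452 between species, against 0.976 to 0.988 between libraries of a species. Without genes over 16-fold apart in either direction, the correlation between species was 0.691 over 8096 genes. That choice leaves out the most unlike genes and so raises the value. The libraries of the species did not overlap in CPM for 8729 genes (83.8%), so a lack of overlap was the rule.

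Of the 10 most counted genes of each species outside the mitochondrial genome, 5 were in both sets: the glycolytic gene gapdh, myoglobin (mb), the myosin light chains cmlc1 and myl7 and the myosin heavy chain myh7l. The gene gapdh, whose symbol was not unique and so had no test, was at 45836 ± 955 CPM in zebrafish and 33746 ± 9559 CPM in platyfish (SD, n = 3). In zebrafish the set also held slc25a5, eef1a1l1, eno3, aldoaa and a clone-named gene, and in platyfish tpm4a, an actin gene named actc1a, an actin gene named ACTG1 and 2 genes without a symbol.

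The matched contractile genes together were counted slightly higher in zebrafish, with larger shifts in both directions among single genes. Summed over matched sarcomere and Z-disc genes, zebrafish libraries held 82878 to 90862 CPM and platyfish libraries 74464 to 80159 CPM. The sum covers 40 of the 66 genes of the list. It leaves out the unmatched actin gene actc1a, at a mean of 7689 CPM in platyfish, so the order of the sums holds for matched genes only. Of 39 sarcomere and Z-disc genes tested, 3 (7.69%, against 8.75% of all genes) were over 4-fold higher in zebrafish under both scalings, 2 (5.13%, against 7.11%) were 4- to 16-fold higher in platyfish under both, and 7 were over 16-fold higher in platyfish. Over all tested genes, 16.8% were over 16-fold higher in platyfish, and each such count of a list below stands against that share. The median log2 difference of the list was -0.20, against 0.22 for all tested genes, and 0.68 against 1.18 when scaled to all genes, so its sign depended on the scaling.

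The myosin genes myl7 and myh7l were higher in zebrafish. Myosin regulatory light chain myl7 was at 25022, 23559.6 and 23667 CPM in the 3 zebrafish libraries and 8513, 7402 and 11033 CPM in the 3 platyfish libraries. No platyfish library reached the lowest zebrafish library, and the log2 difference was -2.39 ± 0.15 (SE) with an adjusted p of 4.37e-07. The ventricular-type myosin heavy chain myh7l was at 22955, 21945 and 20966 CPM in zebrafish and 10383, 9506 and 10598 CPM in platyfish, a difference of -2.06 ± 0.15. The essential light chain cmlc1 overlapped between species at 18641, 18039 and 23093 CPM and 18013, 19114 and 13904 CPM, as did the troponin genes tnnt2a at 4699, 3768 and 4616 CPM and 4983, 5204 and 4274 CPM and tnnc1a at 5199, 4576 and 4979 CPM and 5369, 5663 and 4522 CPM. For both troponin genes the log2 difference was below 0 on the TMM scale, at -0.79 and -0.86, and above 0 when scaled to all genes, at 0.14 and 0.08, so their direction depended on the scaling. Myoglobin (mb), the oxygen store of red muscle, also overlapped in CPM, at 32376, 29466 and 34189 CPM and 31803, 27531 and 23336 CPM. On the TMM scale mb and cmlc1 were higher in zebrafish, with log2 differences of -1.15 ± 0.19 (adjusted p 0.000355) and -1.16 ± 0.21 (adjusted p 0.000681), and neither passed the threshold when scaled to all genes, at -0.22 and -0.23.

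Z-disc and thin filament genes differed more. The Z-disc protein gene ldb3b was at 2469, 2021 and 2521 CPM in the 3 zebrafish libraries and 504, 506 and 526 CPM in the 3 platyfish libraries, and its duplicate ldb3a at 91.9, 137 and 139.5 CPM and 13.5, 13.5 and 15.8 CPM, so both copies were higher in zebrafish, by 4.56-fold and 8.62-fold in mean CPM. Tropomyosin went the other way: tpm4a, whose product lies along the thin filament, was at 2161, 1469 and 1975 CPM in zebrafish and 13885, 14655 and 13002 CPM in platyfish, 7.41-fold higher in mean CPM, with a log2 difference of 1.95 ± 0.20 and an adjusted p of 1.26e-05. The low tropomyosin gene tpm2 was at 18.9, 13 and 17.3 CPM and 0.0963, 0.101 and 0.891 CPM. Myozenin 2a (myoz2a), a Z-disc partner of calcineurin, was at 31.8, 36.6 and 40.6 CPM and 484, 541 and 313 CPM, higher in platyfish with no overlap. The intermediate filament gene desma was at 571, 482 and 708 CPM and 1940.0, 1963 and 1683 CPM. Slow troponin I genes tnni1a and tnni1d were listed at 0 in all zebrafish libraries and lay between 1241 and 3021 CPM in platyfish.

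**Figure D2:**
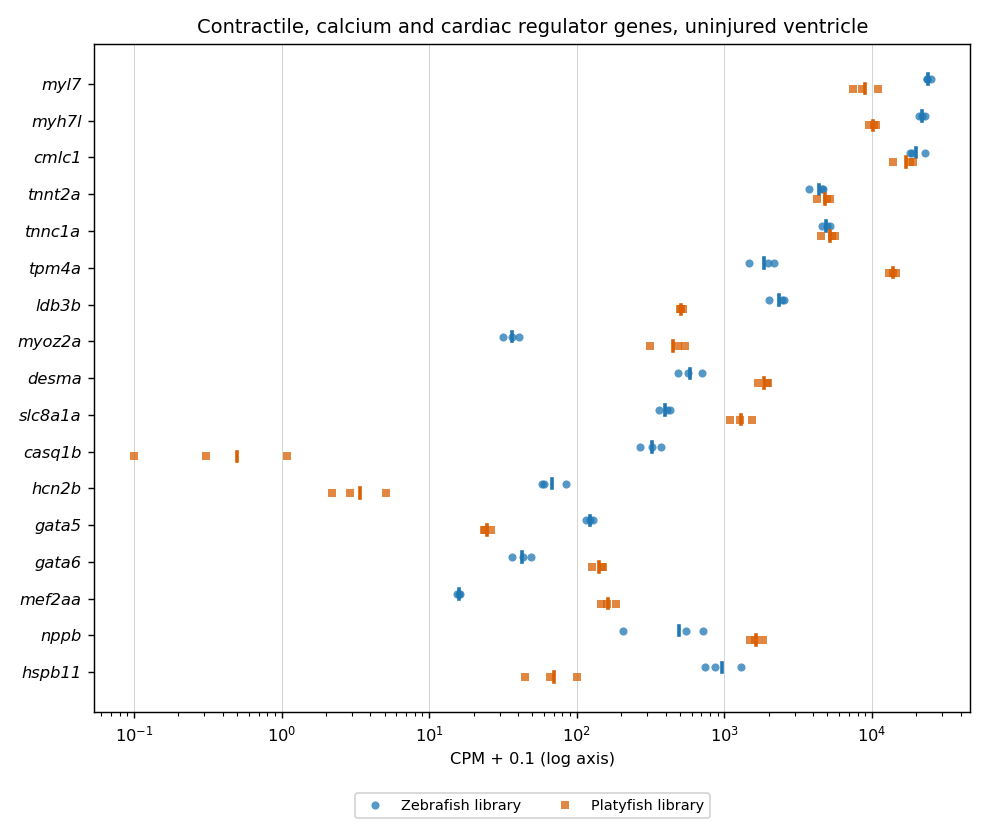
CPM of 17 contractile, calcium, channel and cardiac regulator genes in each library, on a log axis after adding 0.1; circles are the 3 zebrafish libraries, squares the 3 platyfish libraries and vertical bars their means. The libraries overlap for cmlc1, tnnt2a and tnnc1a and do not overlap for the other 14 genes.

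Calcium release and uptake set the beat-to-beat force of heart muscle. Of 24 calcium handling genes tested, 4 (16.7%, against 8.75% of all genes) were over 4-fold higher in zebrafish under both scalings, 2 (8.33%, against 7.11%) were 4- to 16-fold higher in platyfish under both, and 3 were over 16-fold higher in platyfish. Calsequestrins, which store calcium in the sarcoplasmic reticulum, differed by type. The skeletal-type copy casq1b was at 375, 324 and 269 CPM in the 3 zebrafish libraries and 0.995, 0 and 0.21 CPM in the 3 platyfish libraries, a log2 difference of -10.48 ± 0.77, while the cardiac-type casq2 was at 618, 467 and 581 CPM and 302, 286 and 304 CPM, 1.87-fold higher in zebrafish in mean CPM. The skeletal-type release channel ryr1b was at 29.8, 30.9 and 36.7 CPM in zebrafish and 0, 0 and 0.105 CPM in platyfish. Summed skeletal muscle markers were also higher in zebrafish, at 43.0 to 76.1 CPM against 1.57 to 17.97 CPM over 9 matched genes, most of it ckma at a mean of 62.5 CPM and 6.2 CPM. Their part in the casq1b and ryr1b values was not tested. The gene ryr2b, of the cardiac type, was higher in platyfish at 244, 247 and 294 CPM against 39.2, 30.2 and 37.8 CPM, a log2 difference of 1.92 ± 0.16. The sodium-calcium exchanger slc8a1a, which removes calcium from the cell, was at 407, 362 and 428 CPM and 1099, 1279.9 and 1542 CPM, 3.27-fold higher in platyfish in mean CPM with a log2 difference of 0.75 ± 0.15. Calmodulin genes calm1b and calm2a were 4- to 16-fold higher in platyfish, but their copies encode near-identical proteins and reads may be split between them.

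Of 9 channel and connexin genes tested, 4 (44.4%, against 8.75% of all genes) were over 4-fold higher in zebrafish under both scalings, 1 (11.1%, against 7.11%) was 4- to 16-fold higher in platyfish under both, and 1 was over 16-fold higher in platyfish. The list had 23 matched genes, and the others were not tested. All 4 genes higher in zebrafish were over 16-fold apart on the TMM scale, against 5.47% of all genes. They may be counted unequally, which was not tested. The pacemaker channel gene hcn2b was at 58.3, 60.1 and 84.5 CPM in the 3 zebrafish libraries and 2.79, 2.08 and 5.03 CPM in the 3 platyfish libraries, 20.5-fold higher in zebrafish in mean CPM. The potassium channel subunit kcne4 was at 20.4, 17.9 and 16.8 CPM in zebrafish and 0, 0.0336 and 0 CPM in platyfish. The connexin genes gja5a and gja5b, of the gap junction family of fast conduction, differed in opposite directions: gja5a was at 52.4, 45 and 52.8 CPM in zebrafish and 0, 0 and 0.0524 CPM in platyfish, and gja5b at 28.5, 13 and 22.2 CPM and 1243, 1127 and 1738 CPM. The platyfish gene named gja5b lies on chromosome 22, which is not 1 of the 2 that hold most matched genes of its zebrafish chromosome, and its level is over 16-fold higher in platyfish, so it is printed as counted.

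Regulators of heart muscle differed member by member. Of 22 cardiac transcription factor and cofactor genes tested, 3 (13.6%, against 8.75% of all genes) were over 4-fold higher in zebrafish under both scalings, 2 (9.09%, against 7.11%) were 4- to 16-fold higher in platyfish under both, and 4 were over 16-fold higher in platyfish. Of the GATA factors that direct heart muscle genes, gata5 was higher in zebrafish, at 123, 116 and 129.6 CPM against 26, 23.9 and 23.5 CPM, a log2 difference of -3.27 ± 0.16. Its relative gata6 was higher in platyfish, at 43.1, 36.1 and 48.7 CPM against 150.5, 126 and 148 CPM, a difference of 0.78 ± 0.16. The muscle factor mef2aa was at 15.9, 15.4 and 16.1 CPM and 159, 147 and 186 CPM, 10.4-fold higher in platyfish, and mef2cb was at 23.8, 32.4 and 31.5 CPM and 9.54, 8.5 and 12.6 CPM, 2.86-fold higher in zebrafish. The coactivators of mitochondrial biogenesis were exchanged, with ppargc1a at 5.68, 7.58 and 10.1 CPM and 90.9, 83.9 and 98.7 CPM and ppargc1b at 53.7, 48.8 and 47.3 CPM and 6.04, 5.61 and 5.03 CPM. These are separate genes in all vertebrates and not teleost duplicates.

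The natriuretic peptide gene nppb, a hormone released by stretched heart muscle, was at 205, 549.7 and 722 CPM in the 3 zebrafish libraries and 1607, 1816 and 1505 CPM in the 3 platyfish libraries. No libraries overlapped, but the zebrafish pools spread 205 to 722 CPM, and the adjusted p was 0.0753 on the TMM scale, past the threshold when scaled to all genes. The small heat shock protein gene hspb11 was 13.8-fold higher in zebrafish in mean CPM, at 743, 859 and 1292 CPM against 44.8, 99.6 and 66 CPM. The stress factor atf3 was at 27.15, 77 and 159 CPM and 6.9, 17.1 and 11.4 CPM. No libraries overlapped for either gene, and the 3 zebrafish pools spread widely for atf3.

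Of the protein genes encoded in the mitochondrial genome, most were counted higher in zebrafish. Paired by hand by their names, 11 of 13 were higher in zebrafish in CPM without overlap. Of all tested genes, 83.8% did not overlap in 1 direction or the other, so a lack of overlap alone does not set these genes apart. Cytochrome oxidase subunit 1 was at 109045, 113750.0 and 99692 CPM in zebrafish and 69376, 69542 and 56651 CPM in platyfish, 1.65-fold higher in the mean. The complex I subunits nd5 and nd3 were 4.16-fold and 5.62-fold higher. Cytochrome oxidase subunit 2 overlapped, at 49675, 50587 and 45987 CPM and 52094, 50200.0 and 45913 CPM, and atp8, which shares bases with atp6, was lower in zebrafish, at 186, 314 and 243 CPM against 1148, 1091 and 1075 CPM. These genes were outside the matched table and had no test beyond the lack of overlap.

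Of 63 nuclear respiratory chain and ATP synthase genes tested, 4 (6.35%, against 8.75% of all genes) were over 4-fold higher in zebrafish under both scalings, 4 (6.35%, against 7.11%) were 4- to 16-fold higher in platyfish under both, and 10 were over 16-fold higher in platyfish. The ATP synthase beta subunit atp5f1b overlapped at 2680.4, 2212 and 2577 CPM and 2745, 2896 and 2545 CPM, and its direction depended on the scaling. Cytochrome c gene cycsb was at 644, 659 and 774 CPM in the 3 zebrafish libraries and 27.6, 30.2 and 52.3 CPM in the 3 platyfish libraries, a log2 difference of -5.22 ± 0.23. The ATP synthase subunit g gene atp5l was at 973, 886 and 1149.9 CPM and 40.4, 36.1 and 40.4 CPM, 25.7-fold higher in zebrafish. Higher in platyfish were the cytochrome oxidase genes cox5ab, at 181, 146 and 206 CPM against 1852, 1927 and 1468 CPM, and cox6a1, at 15.8, 17.9 and 23.7 CPM against 277, 310.2 and 264 CPM. Complex III core protein uqcrc1 was at 31.4, 18.1 and 37.8 CPM and 366, 339 and 372 CPM. The list's median log2 difference was -0.69, against 0.22 for all tested genes, and 0.25 against 1.18 when scaled to all genes.

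The ADP/ATP carrier slc25a5, which exports ATP from mitochondria, was at 23581, 24327 and 24389 CPM in the 3 zebrafish libraries and 3805, 3855 and 3980.5 CPM in the 3 platyfish libraries, a log2 difference of -3.58 ± 0.16 with an adjusted p of 6.06e-08. Its close relative slc25a6 was listed at 0 in zebrafish and at 1670.4, 2012 and 1528 CPM in platyfish. The latter is over 16-fold and is printed as counted.

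Single enzymes of the fuel pathways differed in both directions. Of 19 TCA cycle genes tested, 3 (15.8%, against 8.75% of all genes) were over 4-fold higher in zebrafish under both scalings, 2 (10.5%, against 7.11%) were 4- to 16-fold higher in platyfish under both, and 2 were over 16-fold higher in platyfish. Mitochondrial malate dehydrogenase mdh2, which closes the cycle, was at 4926, 5044 and 5065 CPM in the 3 zebrafish libraries and 585, 564 and 542 CPM in the 3 platyfish libraries, 8.89-fold higher in zebrafish, with a log2 difference of -4.10 ± 0.17 and an adjusted p of 5.06e-08. Of the cytosolic copies, mdh1ab was 23.3-fold higher in zebrafish at 188, 133 and 174 CPM against 8.25, 6.82 and 6.19 CPM, while mdh1aa was at 1118, 1110.2 and 1075 CPM and 1849, 1819 and 1393 CPM with an adjusted p of 0.158 and a direction that depended on the scaling. Citrate synthase (cs), the entry step, was at 1268, 1121 and 1131 CPM and 881, 811 and 766 CPM. The pyruvate dehydrogenase subunit pdha1a was higher in platyfish, at 15.1, 10.6 and 11.2 CPM against 173, 133 and 167 CPM.

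Of 37 glycolysis and glycogen genes tested, 3 (8.11%, against 8.75% of all genes) were over 4-fold higher in zebrafish under both scalings, 2 (5.41%, against 7.11%) were 4- to 16-fold higher in platyfish under both, and 8 were over 16-fold higher in platyfish. Lactate dehydrogenase A (ldha) was at 1084, 1076 and 1097 CPM in the 3 zebrafish libraries and 93.9, 88.1 and 116 CPM in the 3 platyfish libraries, 10.9-fold higher in zebrafish, with a log2 difference of -4.41 ± 0.15. Enolase eno3 was at 6119, 7493 and 6977 CPM and 2309.5, 2709.7 and 1255 CPM, 3.28-fold higher in zebrafish in mean CPM, and past 4-fold only on the TMM scale. The muscle phosphoglycerate mutase pgam2, the preceding enzyme, was at 452, 391 and 456 CPM and 2161, 2309 and 1224 CPM, 4.38-fold higher in platyfish. Aldolase aldoaa overlapped in CPM, at 5709, 5673 and 6293 CPM and 5752, 5322 and 4508 CPM, but was higher in zebrafish on the TMM scale, at -1.12 ± 0.18 with an adjusted p of 0.000293, and not past the threshold at -0.18 when scaled to all genes. The glycogen precursor enzyme ugp2a was 11.8-fold higher in platyfish.

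Of 33 fatty acid oxidation and uptake genes tested, 2 (6.06%, against 8.75% of all genes) were over 4-fold higher in zebrafish under both scalings, 1 (3.03%, against 7.11%) was 4- to 16-fold higher in platyfish under both, and 3 were over 16-fold higher in platyfish. Among the members called higher in zebrafish on the TMM scale, the first dehydrogenase acadvl was at 851, 682 and 729.6 CPM in zebrafish and 334, 257 and 221 CPM in platyfish, hadhb at 512, 482 and 482 CPM and 173, 151 and 175 CPM, and the carnitine transferase cpt1b, which admits long chains, at 78.3, 70.01 and 74.3 CPM and 21.4, 33 and 25.2 CPM. Their log2 differences were -2.42 ± 0.22, -2.52 ± 0.15 and -2.42 ± 0.22, all under 4-fold when scaled to all genes. The fatty acid carrier fabp3 overlapped at 1217, 1139.5 and 1121 CPM and 1371, 1401 and 999 CPM, and its direction depended on the scaling. The lipase pnpla2, which opens lipid stores, was 8.67-fold higher in platyfish, at 4.25, 5.55 and 6.7 CPM against 49, 47.1 and 46.9 CPM.

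**Figure D3:**
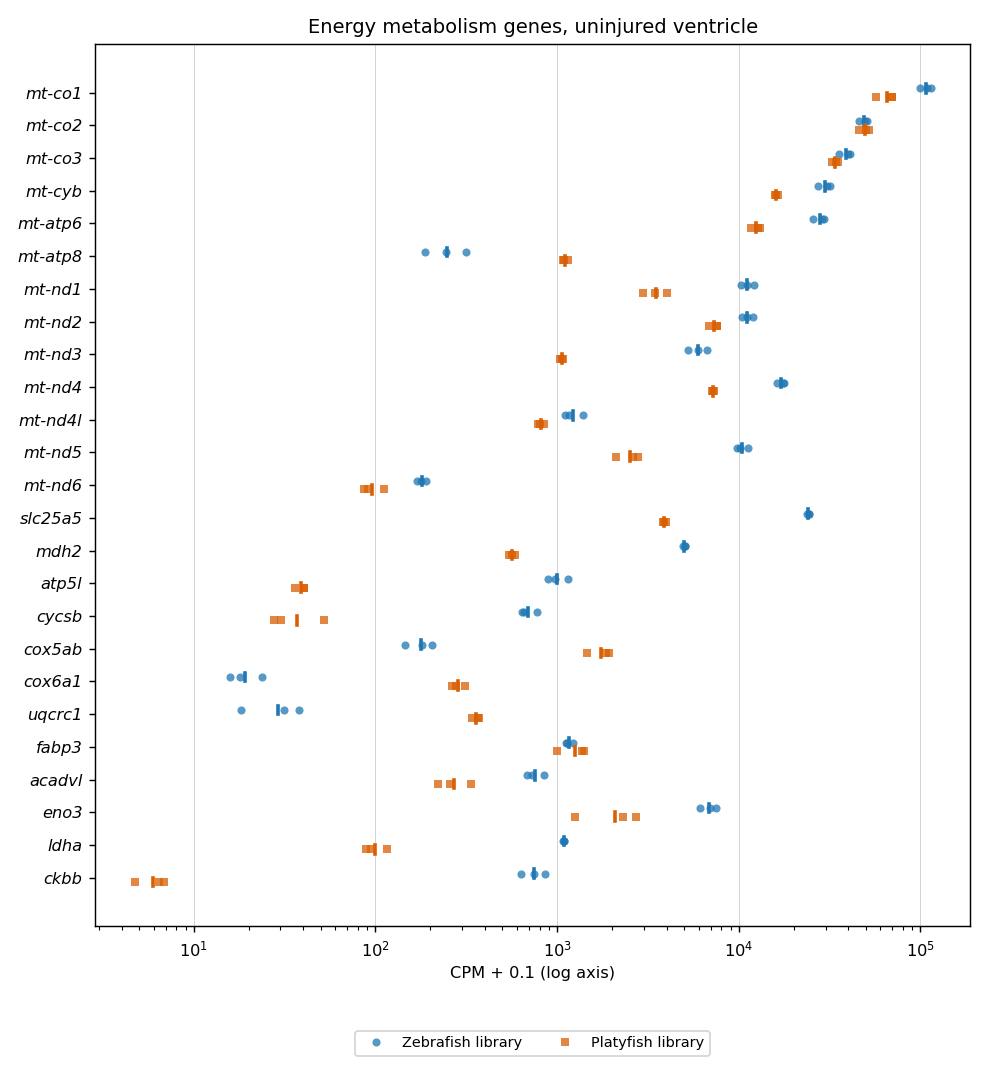
CPM of the 13 mitochondrially encoded protein genes and 12 nuclear energy genes in each library, on a log axis after adding 0.1; circles are zebrafish libraries, squares platyfish libraries and vertical bars means of 3. Of the mitochondrial genes, mt-co2 overlaps and mt-atp8 is lower in zebrafish, and the other 11 are higher in zebrafish.

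Cells of the vessel wall and endocardium were judged by their markers. In bulk tissue, fewer cells of a type and less RNA per cell cannot be told apart. Of 17 endothelial and endocardial markers tested, 2 (11.8%, against 8.75% of all genes) were over 4-fold higher in zebrafish under both scalings, 0 (0%, against 7.11%) were 4- to 16-fold higher in platyfish under both, and 4 were over 16-fold higher in platyfish. The VEGF receptor gene kdrl overlapped between species in CPM, at 134, 128 and 145 CPM and 127, 111 and 169 CPM, and its log2 difference of -0.97 ± 0.14 on the TMM scale (adjusted p 0.000151) was not past the threshold when scaled to all genes. The endothelial junction gene cdh5 was 7.22-fold higher in zebrafish, at 205, 213 and 239.9 CPM against 29.4, 15.9 and 45.8 CPM, a log2 difference of -3.85 ± 0.29, and the water channel gene aqp1a.1 was at 24.9, 25.4 and 30.4 CPM and 5.84, 6.68 and 3.15 CPM. The endocytic receptor genes mrc1a and stab1 were at 3895, 3359.9 and 5329 CPM and 1041, 1328 and 1508 CPM in platyfish, against 0.179, 0.424 and 0.0798 CPM and 18, 13.3 and 12.9 CPM in zebrafish. The receptor tie1 was at 5.68, 12.8 and 15.2 CPM and 229, 201 and 284 CPM, and notch1a, a receptor of endocardial signalling, was at 27.4, 21.5 and 20.5 CPM and 296, 187 and 294 CPM, 11.2-fold higher in platyfish. Coagulation factor VIII (f8) was at 1239.7, 963 and 1477 CPM and 4447, 4098 and 3963 CPM, 3.4-fold higher in platyfish in mean CPM.

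For other cell types, sums cover matched markers only and do not give a cell type's share of the counts. Macrophage markers summed to 57.4 to 74.9 CPM in zebrafish and 268 to 568 CPM in platyfish over 9 matched genes. However, 4 of the 9 were over 16-fold higher in platyfish, against 16.8% of all genes. The list's median log2 difference was 1.98, against 0.22 for all tested genes. Without genes over 16-fold higher in platyfish it was -0.02, against -0.25 for all tested genes. Neutrophil markers summed to 4.31 to 14.2 CPM and 27.4 to 61.6 CPM over 4 genes, with csf3r at 0.885 CPM and 20.9 CPM in the mean. Only 1 of the 4 was 4-fold higher in platyfish on the TMM scale (28.9% of all genes were), and 3 were not called at 4-fold. The median log2 difference of these markers was 0.53, against 0.22 for all tested genes. Of 9 epicardial markers tested, 6 were 4-fold higher in platyfish on the TMM scale (28.9% of all genes were), 2 of them over 16-fold (16.8%). Another 2 were 4-fold higher in zebrafish (15.0% of all genes), and the median log2 difference was 3.30. The epicardial factor tcf21, for example, was at 0.214, 0.508 and 0.0798 CPM in zebrafish and 19.7, 18.5 and 16.3 CPM in platyfish. Its zebrafish level was near 0, so it is printed as counted. The sums of the 9 markers overlapped, at 488 to 526 CPM and 460.4 to 555 CPM, and were mostly podxl, at a mean of 318 CPM and 341 CPM, and anxa2a, at 176 CPM and 23.1 CPM. Of 8 pericyte markers tested, 4 were 4-fold higher in zebrafish on the TMM scale (15.0% of all genes were), 2 of them also when scaled to all genes (8.75%). The receptor pdgfrb was the 1 marker 4-fold higher in platyfish (12.6-fold), against 28.9% of all genes. The median log2 difference of the list was -1.58. Of 9 markers of bulbus and vascular smooth muscle tested, 5 were 4-fold higher in platyfish on the TMM scale (28.9% of all genes were). Of these, 2 were over 16-fold higher (16.8% of all genes). The other 4 were not called at 4-fold. The smooth muscle gene tagln was 8.48-fold higher in platyfish, at 10.5, 7.54 and 8.06 CPM against 70.6, 108 and 42.2 CPM. Of 8 red cell markers tested, 4 were 4-fold higher in platyfish (28.9% of all genes were), 2 of them over 16-fold (16.8%). Another 1 was 4-fold higher in zebrafish (15.0% of all genes), and 3 were not called at 4-fold. The transferrin receptor gene tfr1a, which serves iron uptake of red cells, was at 3.68, 2.67 and 4.91 CPM and 37.8, 62.8 and 34.7 CPM.

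The extracellular matrix of the resting ventricle differed between chains and the enzymes that process them. Of 40 collagen and matrix genes tested, 9 (22.5%, against 8.75% of all genes) were over 4-fold higher in zebrafish under both scalings, 4 (10%, against 7.11%) were 4- to 16-fold higher in platyfish under both, and 2 were over 16-fold higher in platyfish. The fibrillar chain col1a2 was at 65.5, 50.7 and 50.1 CPM in the 3 zebrafish libraries and 12.6, 10.7 and 14 CPM in the 3 platyfish libraries, a log2 difference of -3.12 ± 0.17 with an adjusted p of 1.61e-07. Chain col5a2a was at 49.7, 51.8 and 51.6 CPM and 3.31, 5.84 and 3.04 CPM, and col5a1 at 27.4, 18.4 and 25.9 CPM and 5.65, 3.09 and 5.14 CPM. The beaded filament chains col6a1, at 37.2, 44.6 and 40.04 CPM against 6.58, 7.82 and 10.01 CPM, and col6a2, at 61.5, 60.7 and 53.6 CPM against 7.51, 6.78 and 10.2 CPM, were 4.99-fold and 7.18-fold higher in zebrafish. All 5 of these chains were thus lower in every platyfish library than in any zebrafish library. They were picked as chains higher in zebrafish, and 83.8% of all tested genes did not overlap in 1 direction or the other. The median log2 difference of the whole list was -0.04, against 0.22 for all tested genes, and 0.91 against 1.18 when scaled to all genes.

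Of the 2 copies of the partner chain, col1a1a went against them, at 0.75, 1.14 and 1.08 CPM in zebrafish and 10.5, 10.8 and 13.2 CPM in platyfish. The other copy, col1a1b, was higher in zebrafish, at a mean of 47.1 CPM against 12.7 CPM. The a copy held 2.07% of the pair's counts in zebrafish and 47.5% in platyfish. The cross-linking enzyme loxl1 was at 52.4, 48.5 and 48.2 CPM and 2.05, 1.68 and 1.73 CPM, 27.3-fold higher in zebrafish, and thbs3a, a thrombospondin, at 97.4, 56.6 and 97.6 CPM and 14.8, 15 and 12.1 CPM. The small proteoglycan dcn was 2.33-fold higher in zebrafish at 69.5, 47.8 and 61.3 CPM against 20.9, 23.7 and 32.1 CPM, and under 4-fold when scaled to all genes. Basement membrane genes divided: lamb2 was at 101, 97 and 117 CPM in zebrafish and 34.3, 32.8 and 32.9 CPM in platyfish, whereas lama4, lamc1 and nid1a were higher in platyfish. Laminin chain lama4 was at 41.5, 30.2 and 46.1 CPM and 194, 207 and 178 CPM, lamc1 at 25.5, 19.8 and 26 CPM and 99.6, 98.2 and 143 CPM, and the linker nid1a at 6.25, 4.4 and 2.99 CPM and 50.7, 53.5 and 55 CPM.

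Of 26 matrix enzyme and inhibitor genes tested, 0 (0%, against 8.75% of all genes) were over 4-fold higher in zebrafish under both scalings, 6 (23.1%, against 7.11%) were 4- to 16-fold higher in platyfish under both, and 3 were over 16-fold higher in platyfish. Those higher in platyfish included the collagen hydroxylase subunits p4hb, at 24.6, 23.2 and 24.7 CPM against 326, 349 and 425 CPM, and p4ha1b, at 5.97, 6.31 and 6.18 CPM against 84.9, 78 and 62.9 CPM. The collagen chaperone gene serpinh1a was at 4.86, 6.73 and 4.43 CPM and 48.5, 50.4 and 56.1 CPM. The lysosomal protease ctsba was at 93.7, 33.7 and 59.6 CPM and 699, 538 and 846 CPM, with more spread between pools. The matrix protease adamts5 was at 0.786, 0.593 and 0.838 CPM and 12.2, 4.33 and 11.7 CPM. The lysyl hydroxylase plod2 was lower in platyfish, at 18.4, 17.4 and 19 CPM against 4.66, 5.0 and 5.24 CPM, as was p4ha2 at 25.5, 25.3 and 33.5 CPM against 12, 10.9 and 6.24 CPM.

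**Figure D4:**
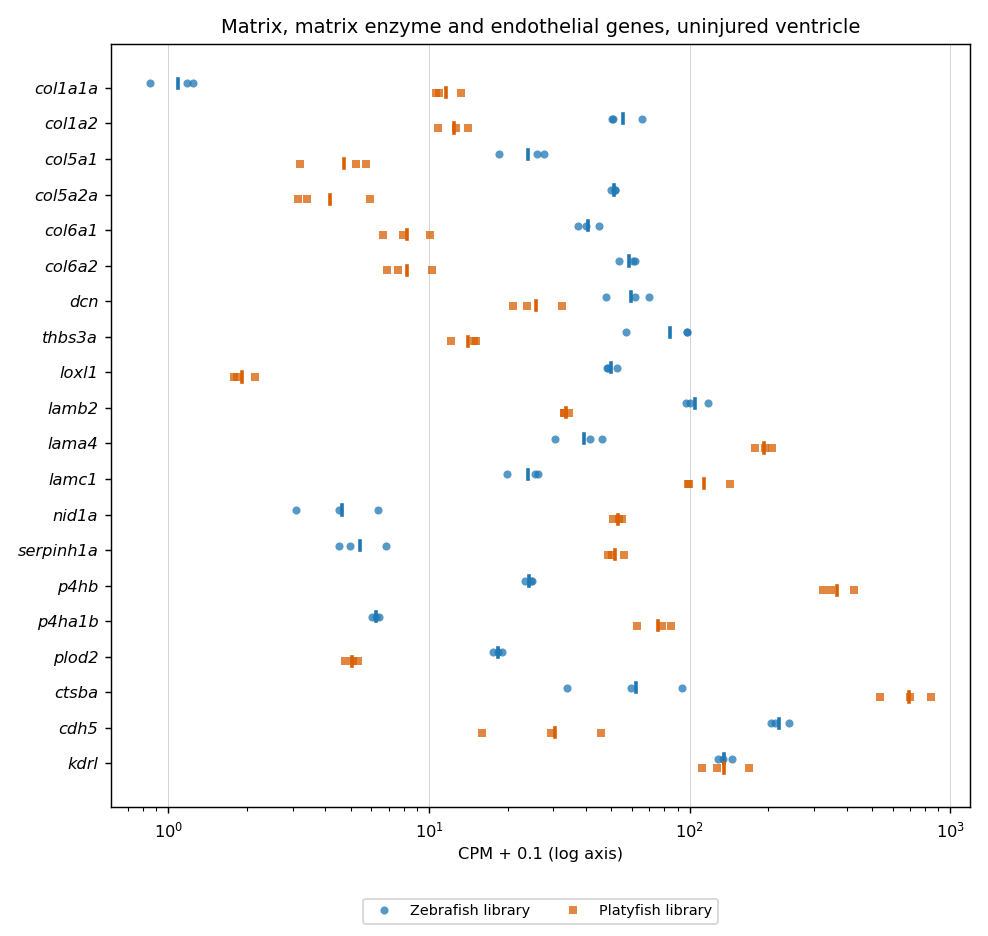
CPM of 20 matrix, matrix enzyme and endothelial genes in each library, on a log axis after adding 0.1; circles are zebrafish libraries, squares platyfish libraries and vertical bars means of 3. The chains col1a2 to col6a2 lie to the right in zebrafish, the enzymes p4hb and p4ha1b lie to the right in platyfish, and kdrl overlaps.

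Of 61 growth factor and receptor genes tested, 7 (11.5%, against 8.75% of all genes) were over 4-fold higher in zebrafish under both scalings, 6 (9.84%, against 7.11%) were 4- to 16-fold higher in platyfish under both, and 17 were over 16-fold higher in platyfish. The angiogenic ligand vegfab was at 202, 245 and 206 CPM in zebrafish and 67, 38.7 and 46 CPM in platyfish, a log2 difference of -3.05 ± 0.23. The vessel-stabilising ligand angpt1 was at 25.8, 20.6 and 25.1 CPM and 218, 221 and 327 CPM, 10.7-fold higher in platyfish. The insulin-like growth factor gene igf2b was at 2.61, 1.86 and 2.71 CPM and 37.1, 30.4 and 42.9 CPM, 15.4-fold higher in platyfish. The signal transducer smad2 was at 9.64, 9.91 and 9.81 CPM and 2.09, 1.14 and 1.42 CPM, the chemokine scavenger ackr3b at 6.47, 5.97 and 9.73 CPM and 0.803, 0.504 and 0.839 CPM, and the receptor fgfr4 at 4.54, 4.62 and 5.42 CPM and 0.0321, 0.134 and 0.0524 CPM, all higher in zebrafish.

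Genes that respond within minutes to handling or stress differed in both directions. Of 37 immediate early and heat shock genes tested, 4 (10.8%, against 8.75% of all genes) were over 4-fold higher in zebrafish under both scalings, 5 (13.5%, against 7.11%) were 4- to 16-fold higher in platyfish under both, and 3 were over 16-fold higher in platyfish. The AP-1 member jund was at 34.7, 52 and 64.6 CPM and 1.35, 0.907 and 1.52 CPM, and klf6a at 53.9, 50.9 and 62.3 CPM and 1.44, 1.65 and 2.73 CPM, with log2 differences of -6.29 ± 0.28 and -5.83 ± 0.22. The flow-responsive factor klf2b was 9.58-fold higher in platyfish, at 7.82, 11.5 and 12.1 CPM against 74.6, 116 and 111 CPM. Glucocorticoid-responsive genes did not move together: tsc22d3 was at 28.6, 13.3 and 19.8 CPM and 314, 283 and 331 CPM, 15.1-fold higher in platyfish, and fkbp5 at 386, 506 and 533 CPM and 120.0, 140.0 and 105 CPM, 3.9-fold higher in zebrafish. The inducible heat shock gene hspa1b was at 3.54, 6.65 and 13.2 CPM and 53.6, 128 and 60.7 CPM, with pools of each species spread over more than 2-fold. The chaperone hsp90ab1 overlapped at 2551, 2412 and 2417 CPM and 2356, 2742 and 2681 CPM, and its direction depended on the scaling.

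Of 29 clock genes tested, 2 (6.9%, against 8.75% of all genes) were over 4-fold higher in zebrafish under both scalings, 1 (3.45%, against 7.11%) was 4- to 16-fold higher in platyfish under both, and 3 were over 16-fold higher in platyfish. The clock repressor nr1d1 was at 38.4, 25.1 and 19.5 CPM and 4.14, 4.9 and 6.45 CPM, roraa at 17.6, 17.2 and 16.9 CPM and 0.674, 0.369 and 0.786 CPM, and the output factor tefb at 11.8, 8.94 and 11.2 CPM and 85.7, 61.7 and 106 CPM. The time of day of collection is not given for either species. Of 35 cell cycle genes tested, 0 (0%, against 8.75% of all genes) were over 4-fold higher in zebrafish under both scalings, 3 (8.57%, against 7.11%) were 4- to 16-fold higher in platyfish under both, and 3 were over 16-fold higher in platyfish. They had summed levels of 377 to 407 CPM and 658 to 929 CPM.

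Across the whole table, the 12 genes with the largest difference towards zebrafish and at least 1 CPM in platyfish were led by ppp1r13ba, a regulator of p53 activity, at 349, 347 and 349 CPM in the 3 zebrafish libraries and 1.99, 1.91 and 1.26 CPM in the 3 platyfish libraries. The log2 difference was -8.56 ± 0.28 with an adjusted p of 1.87e-08. Next came ppdpfa at 563, 466 and 534 CPM and 2.54, 6.41 and 0.419 CPM, then ckbb, described below. The splicing regulator mbnl3 was at 136, 145 and 127 CPM and 1.41, 0.739 and 1.26 CPM, and the cysteine-oxidising enzyme gene cdo1 at 133, 81.5 and 153 CPM and 1.61, 0.672 and 1.21 CPM. The small heat shock protein hspb6, a regulator of muscle relaxation, was at 169, 182 and 349 CPM and 1.16, 1.58 and 4.77 CPM. Coagulation factor X (f10) was at 156, 137 and 118 CPM and 2.22, 2.32 and 2.41 CPM, and the calcium-dependent kinase camk2b1 at 119.7, 131 and 115 CPM and 2.7, 2.69 and 2.94 CPM. The others were ndel1a, tmem178, dusp22b and jund. All 12 were over 16-fold higher in zebrafish and carry the limit given above for such genes. For some of them the platyfish counts lay mainly in the other copy. Copy ppp1r13bb was at a mean of 27.6 CPM in zebrafish and 37.1 CPM in platyfish, and ppdpfb at 105 CPM and 218 CPM. Copy ndel1b was at 3.87 CPM and 30.3 CPM. The absence of overlap was part of the choice.

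The 12 genes with the largest difference towards platyfish and at least 1 CPM in zebrafish were all over 16-fold apart and included 5 ribosomal protein genes (rpl10, rpl21, rpl39, rpl30 and rps12) and 3 genes of the respiratory chain and ATP synthase (uqcrb, uqcrq and atp5if1b). The others were slc3a2a, krt18a.1, acsl1a and slmapb. Genes under 1 CPM in platyfish with the largest difference towards zebrafish were ndufa4l, at 993, 858 and 1072 CPM and listed at 0 in platyfish, s100a10b, ndufa6, tmem88a and acsl1b. Those under 1 CPM in zebrafish were tnni1d, slc25a6, tnni1a, rpl32 and rpl26, all listed at 0 there.

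The balance between gene copies needs no scaling between species, since both copies are counted in the same library. For symbols that differ only in a final a or b, the share of the a copy was compared in 452 pairs with at least 10 CPM for both copies together in each species, by limma on the log2 ratio of the copies. The share differed in 358 pairs (79.2%), and in 140 (31.0%) the more counted copy was the other one. Pairs were formed by symbol alone, so some are not teleost duplicates. The genes ppargc1a and ppargc1b are older relatives, and bckdha with bckdhb, or fnta with fntb, are different subunits of 1 enzyme. Such pairs stayed in these counts, and for different subunits the share is not a balance of copies. In 106 of the 140, both copies lay on 1 of the 2 platyfish chromosomes that hold most matched genes of their zebrafish chromosome. This held for both copies in 356 of all 452 pairs and in 281 of the 358 called ones. Taken singly, 88.3% of all matched genes lay there. In 64 of the 140, both copies were at 5 CPM or more on average in each species.

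An exchange can rest on a copy counted over 16-fold higher in platyfish, a kind of value that is printed as counted and not read as expression. This limit holds for creatine kinase b, which buffers ATP, and for acyl-CoA synthetase 1. It also holds for other pairs, among them fn1 through fn1a, anxa2 through anxa2b, s100a10 through s100a10a and slc3a2 through slc3a2a. Copy ckbb was at 748, 853 and 632 CPM in the 3 zebrafish libraries and 6.29, 4.63 and 6.71 CPM in the 3 platyfish libraries, and ckba at 4.5, 9.57 and 3.43 CPM and 336, 327 and 414 CPM. The a copy thus held 0.598, 1.11 and 0.54% of the pair's counts in zebrafish and 98.2, 98.6 and 98.4% in platyfish, a log2 ratio difference of 13.06 ± 0.33 with an adjusted p of 5.02e-07 in limma. Of the copies of long-chain acyl-CoA synthetase 1, which activates fatty acids, acsl1b was at 774, 729.8 and 595 CPM and 0.161, 0.0336 and 0.157 CPM and acsl1a at 1.14, 2.63 and 2.35 CPM and 423, 301 and 408 CPM, so that the a copy held 0.147, 0.359 and 0.394% and 99.96, 99.99 and 99.96%. Both copies of each lay on corresponding chromosomes, zebrafish chromosomes 13 and 20 with platyfish chromosomes 19 and 15 for ckb, and 1 and 14 with 5 and 23 for acsl1.

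The other pairs with the largest differences in share were s100a10, osbpl3, efr3b, slc4a2, slc3a2, nrp2, anxa2 and dusp22, and in each the minor copy was under 3 CPM in at least 1 species. The genes efr3ba, slc3a2b and dusp22a did not lie on the common corresponding chromosomes. The a copy of slc4a2, an anion exchanger, held 99.2, 99.3 and 98.8% in zebrafish and 2.44, 2.1 and 1.37% in platyfish. That of anxa2, a membrane-binding protein, held all counts of the pair in zebrafish, where anxa2b was listed at 0, and 2.3, 2.82 and 14.5% in platyfish, where 1 pool stood apart. Fibronectin fn1, a matrix protein of the regenerating zebrafish heart, was counted mainly as fn1b in zebrafish, with an a share of 1.45, 3.52 and 2.06%, and mainly as fn1a in platyfish, with 95.1, 84.7 and 91.2%, although the platyfish gene named fn1b lies on a chromosome that is not 1 of the 2 common ones.

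The creatine synthesis gene gatm, of the same pathway as ckb, was at 2.96, 4.11 and 3.99 CPM in zebrafish and listed at 0 in platyfish.

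Pairs with every copy at 5 CPM or more, chosen after their values were seen, included cd82, a tetraspanin gene, whose a share was 94.2, 92.4 and 94% in zebrafish and 4.79, 4.07 and 5.73% in platyfish. The a share of the Z-disc gene myoz2 was 14.5, 13.3 and 11.5% and 77.9, 82.2 and 72.6%, and that of the glycolytic gene pfkp 70.5, 72.5 and 66.3% and 18.4, 17.6 and 15.7%. They were taken from the exchanged pairs, so mean shares on opposite sides of 50% were part of the choice. Such an exchange was called in 140 of all 452 pairs (31.0%).

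**Figure D5:**
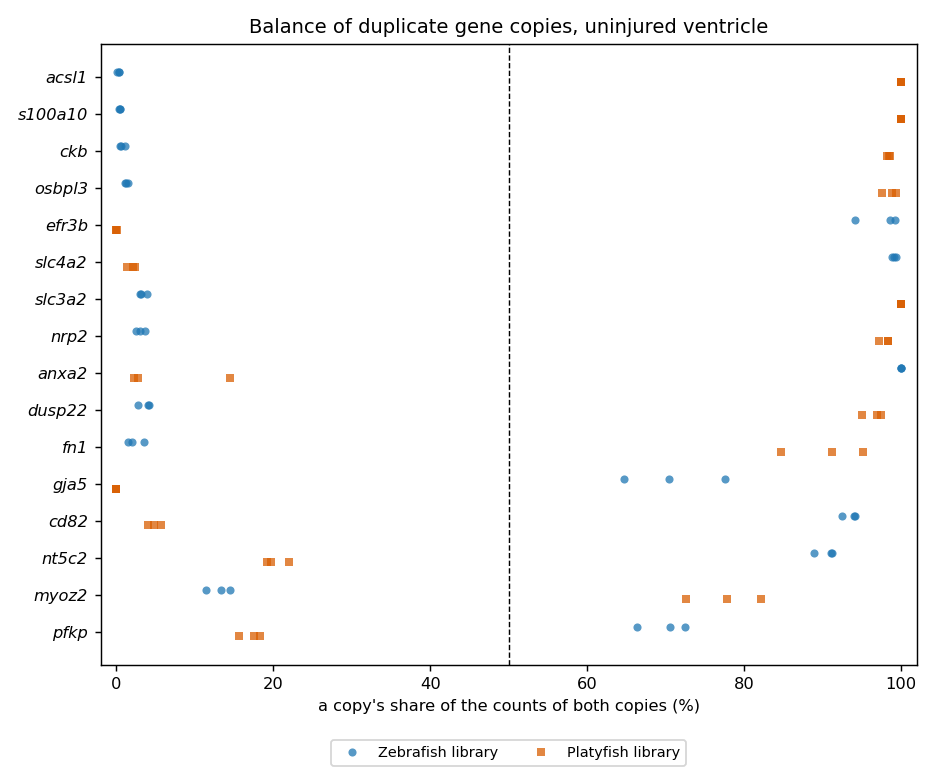
Share of the a copy in the counts of both copies, in percent, for 16 pairs; circles are zebrafish libraries, squares platyfish libraries and the dashed line marks 50%. The 16 were picked from 452 tested pairs, mostly by their shares, and in all 16 the species lie on opposite sides of 50%. For ckb the means are 0.749% and 98.4%.

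The species difference recurred in the cryoinjured libraries. These are separate pools, but they share gene length, annotation and read counting with the uninjured libraries of their species. Recurrence therefore cannot tell a difference in expression from unequal counting. There 8031 of 10630 genes (75.6%) passed the threshold, and of the 4578 genes that differed 4-fold between uninjured ventricles, 4485 were tested, 4378 differed in the same direction and 2 in the opposite one. The difference itself changed between uninjured and cryoinjured ventricles, by the interaction term, for 98 of the 4578 genes, and for 184 of 10922 tested in all (1891 at an unadjusted p under 0.05).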

How the data were processed

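Stranded poly(A) libraries (TruSeq Stranded mRNA) were made from pooled ventricles, per the labels' protocols. The submitters' processing notes name HISAT2 2.2.1, featureCounts 2.0.1 and DESeq2 1.38.3 without their settings, and GRCz11 as the only build; the platyfish build is not given in the sources used here. Whether counting used strand is also not given, so overlapping and antisense genes may share reads. The deposited raw counts per gene were used for every test. The deposited tables also hold the authors' normalised counts (a signal in which each count is divided by 1 size factor per library), log2 fold changes, their standard errors and test statistics (score columns) and p-values for cryoinjured against uninjured fish, which supplied gene symbols and a check of the counts.

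Species were compared in R 4.3.3 with edgeR 4.0.16 (filterByExpr, TMM factors, robust quasi-likelihood F-test) over the 6 uninjured libraries, with Benjamini-Hochberg adjustment over 10421 genes and an adjusted p of 0.05 as the threshold. The SE of a log2 difference is its size divided by the square root of F. CPM uses the total of all genes. The share of copies was tested with limma 3.58.1 on the log2 ratio of raw counts with a pseudocount of 0.5 counts, and a pair was called where the adjusted p was under 0.05 and the libraries of the species did not overlap. DESeq2 1.42.0, limma voom and other scalings and filters were alternatives. Scripts were tested on simulated data. One label of the cryoinjured platyfish names zebrafish as treated; the title and organism were followed.

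The text names the 12 genes with the largest change in each direction (at least 20 CPM in the higher species and 1 CPM in the other, no overlap), 5 in each direction under 1 CPM in the lower species, up to 4 called in each direction and the 3 most counted of each gene list, and the 10 pairs with the largest difference in share. Genes of the lists that are 4- to 16-fold higher in platyfish, and a few others (such as col6a1, thbs3a, vegfab, smad2, fkbp5 and desma), were chosen after their values were seen. The matched genes, lists and tests were chosen with earlier results of these data known.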

Additional observations from a re-analysis of the deposited data

Results flagged for a closer look

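The species difference of 10 genes named above was itself different between uninjured and cryoinjured ventricles, by the interaction term of edgeR's fit over all 12 libraries. For 4 collagen chains the lower platyfish level of the uninjured ventricle was closer to that of zebrafish on day 7. The log2 difference of col1a2 went from -3.12 to -0.58, an interaction of 2.57 with an adjusted p of 0.0103, and its cryoinjured libraries stood at 149, 148 and 176 CPM in zebrafish and 243, 98.3 and 236 CPM in platyfish. The interactions of col5a2a, col6a1 and col6a2 were 2.69, 1.70 and 1.40. For col1a1a, already higher in platyfish, the difference widened by 2.31.

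The lysyl hydroxylase gene plod2 went from -2.83 to -0.03, an interaction of 2.83 with an adjusted p of 0.00512. For fn1a, over 16-fold higher in platyfish and so printed as counted, the counted difference narrowed, with an interaction of -2.21. The cytochrome c gene cycsb had an interaction of 1.82, the potassium channel subunit kcne4 one of 5.89 and the creatine synthesis gene gatm one of 7.91. Both kcne4 and gatm were at or near 0 in uninjured platyfish, so the size of their interaction depends on the prior count.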

How the results depend on the processing

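The count of genes differing at 4-fold stayed within 1.5 times under DESeq2 (3065 higher in platyfish and 1512 in zebrafish), limma voom (3037 and 1564), other filters, summed copies and each library left out (3058 to 3162 and 1583 to 1638). The count higher in zebrafish moved further under 4 settings: from 1565 to 912 when scaled to the total of all genes, 893 at a log2 change of at least 3, 2420 with glmTreat and 2396 by ranks. Without the 4-fold rule, it moved from 3778 to 2145 when scaled to all genes. Called pairs fell from 358 to 115 when 50 CPM was asked for. Leaving out each library gave 8099 to 8396 called genes, 347 to 356 called pairs and 7405 to 8148 called genes in the cryoinjured libraries. Mitochondrially encoded genes were not in the matched table, so leaving them out changed nothing.

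With the library size over matched genes mdh1aa changed sign, to 0.33. Scaled to all genes, the log2 differences of atp5f1b, fabp3, hsp90ab1, mdh1aa, tnnc1a, tnnt2a changed sign, to 0.13, 0.12, 0.076, 0.62, 0.076, 0.14. Over 158 genes and 13 pairs, 2619 of 2650 values under other settings kept their direction and side of the threshold, 19 lost the call, 5 gained it and 7 changed sign. Losses on leaving out 1 library were those of myh6, and nppb gained its call under other scalings. The replicate numbers did not pair the samples (same-number correlations of deviations from the group mean were -0.0123, 0.0106 and -0.0679), and the fit with a replicate block gave 8111 called genes, 3022 and 1557 genes at 4-fold, 349 pairs and 7506 cryoinjured genes. With 19073562 to 31148127 counts a library, levels well under 1 CPM rest on few reads.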
